A study of Homo sapiens with 8 samples.

Results

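RNA recovered with an antibody against 8-oxoguanine (8-oxoG) from cells exposed to formaldehyde (FA_IP) was compared with RNA recovered in the same way after clean air (CA_IP). The comparison used 4 of the 8 sequenced libraries, 2 in each group, and left the input libraries aside except where they are named. All samples came from BEAS-2B, an established human bronchial epithelial line that was immortalised with a virus, so the data describe 1 line and no airway tissue. Cells on collagen-coated inserts met air with formaldehyde at 1 ppm (FA) or humidified clean air (CA) for 2 h and recovered in fresh medium for 6 h. RNA was depleted of ribosomal RNA, and a portion of each input RNA (FA_IN or CA_IN) was incubated with the antibody. The labels name clone 15A3 in one field and clone 2E2 in the extraction text, so the clone is uncertain.

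Expected counts, which divide reads shared by several transcripts among them, were summed by gene. Genes whose rounded sum reached 10 in 2 or more of the 4 libraries were kept, 16359 of the 58735 genes in the files. The replicates carry the numbers 1 and 3. CA_IP held 22.0 M and 19.8 M expected counts in replicates 1 and 3, and FA_IP held 16.9 M and 23.7 M. Of epithelial markers, the keratin genes KRT7 and KRT5 stood at 2078 to 2573 and 891 to 1440 counts per M library counts. Of mesenchymal markers, VIM stood at 914 to 1251 and CDH2 at 36.6 to 46.5 on this scale. Counts per M counts after scaling by TMM library sizes are written CPM from here on. PTPRC of leukocytes and SCGB1A1, the defining gene of the club cells of the airway, were at 0 counts in the 4 libraries.

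Guanine is the base most easily oxidised, and 8-oxoG in RNA can stall translation and mark a transcript for decay. Antibody recovery enriches RNA that carries the base, but the amount recovered of a transcript also follows how much of it the cell holds. In FA_IP against CA_IP alone, a change in oxidation and a change in abundance cannot be told apart. Input values, as the log2 fold change of FA_IN over CA_IN, are therefore given beside most of the genes described.

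No gene passed the test between FA_IP and CA_IP. By the quasi-likelihood test of edgeR, adjusted after Benjamini and Hochberg, 0 genes (0%) were called higher and 0 (0%) lower at an adjusted p under 0.05, and the smallest adjusted p was 0.229. At an unadjusted p under 0.05, 186 genes (1.14%) lay higher in FA_IP and 443 (2.71%) lower. limma-voom called 0 genes, and DESeq2 called 1 gene higher (0.00611%) and 4 lower (0.0245%). A fit of edgeR with the replicate number as a block called 76 genes higher and 419 lower. The sources do not say what a shared number stands for, so this fit was kept as an alternative. Leaving out any 1 of the 4 libraries gave 2 to 19 calls higher and 6 to 121 lower, with most calls when CA_IP replicate 3 was left out. The median log2 fold change (log2FC) over all genes was 0.01, and the 5th and 95th percentiles of all genes were -0.51 and 0.42. Over the 12090 genes with a mean count of at least 50, the median standard error (SE) of the log2FC was 0.16.

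The libraries of the 2 treatments were as alike as the replicates of 1 treatment. Over those 12090 genes, log2 CPM correlated at r = 0.983 between the replicates of CA_IP and at 0.987 between those of FA_IP. Between treatments, r was 0.988 for the libraries numbered 1, 0.992 for those numbered 3, and 0.975 and 0.989 for the pairs that differ in number. The median absolute difference was 0.19 on the log2 scale between the CA_IP replicates, 0.15 between the FA_IP replicates, and 0.12 to 0.23 across treatments. These are correlations across genes, which are not independent replicates.

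The FA minus CA difference agreed in part between the numbered pairs. Its sign was the same in replicates 1 and 3 for 7792 of the 12090 genes (64.4%), with r = 0.36 between both sets of differences. Differences below -0.5 on the log2 scale in both replicates were found for 125 genes and above 0.5 in both for 26, while 23 genes lay beyond 0.5 in opposite directions. Over all genes tested, FA_IP lay above CA_IP with no overlap between the groups for 2807 genes (17.2%) and below it for 2643 (16.2%). These 2 shares are the background for every count of genes without overlap given here.

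**Figure D1:**
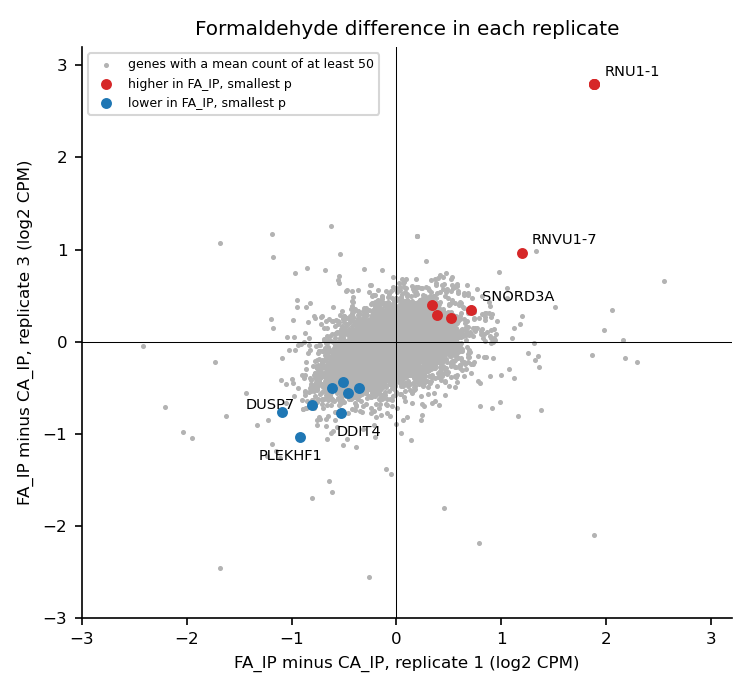
Difference in log2 CPM between FA_IP and CA_IP in replicate 1 (x axis) and replicate 3 (y axis). Each grey point is a gene with a mean count of at least 50. Coloured points mark the 16 genes of smallest unadjusted p among those with a symbol and no overlap. The cloud leans weakly along the diagonal (r = 0.36). The 8 blue genes lie below 0 in both replicates and the 8 red genes above 0, as their choice by groups without overlap requires. RNU1-1, RNU1-3 and RNU1-28P lie on 1 point, and 8 genes beyond 3 in size are not drawn.

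Because no gene passed, the genes described first were taken by smallest unadjusted p in each direction. They had to have a symbol, a mean count of at least 50 and no overlap between the groups. ENSG00000280800 and ENSG00000285238, without a symbol, lay lower at a smaller unadjusted p (edgeR, 1.54e-05 and 2.79e-05) than any gene so chosen, and are described below. The 8 chosen genes that lay lower in FA_IP were DUSP7, DUSP5, DUSP1, MYC, NAB2, DDIT4, RAB20 and PLEKHF1. Of these, DUSP1 and MYC are on the list of immediate early genes. DUSP7, DUSP5 and DUSP1 encode phosphatases that switch off MAP kinases, MYC encodes a transcription factor of growth, and NAB2 encodes a corepressor of EGR transcription factors. DUSP7 stood at 41.9 and 36.3 CPM in CA_IP and at 24.0 and 22.5 in FA_IP, a log2FC of -0.75 ± 0.13 (SE; edgeR adjusted p = 0.958). DUSP5 stood at 65.4 and 66.1 CPM in CA_IP and at 47.3 and 45.0 in FA_IP, a log2FC of -0.51 ± 0.10. Groups without overlap were a condition of the choice of these 8 genes, so the separation of their groups is no further support.

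DUSP1 gave 90.3 and 92.4 CPM in CA_IP against 70.4 and 64.9 in FA_IP (log2FC -0.43 ± 0.10). MYC gave 94.02 and 95.88 CPM against 66.21 and 70.78 (log2FC -0.47 ± 0.10). NAB2 gave 37.5 and 35.1 CPM against 24.4 and 24.7 (log2FC -0.56 ± 0.12). For these 3 genes too, the separation of the groups follows from the choice.

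The other three were DDIT4, RAB20 and PLEKHF1. DDIT4, a stress-induced inhibitor of the mTOR kinase, stood at 125.5 and 118.3 CPM in CA_IP and at 86.9 and 68.9 in FA_IP (log2FC -0.65 ± 0.13). RAB20, a small GTPase of vesicle traffic, stood at 7.25 and 5.98 CPM against 3.35 and 3.49 (log2FC -0.95 ± 0.22). PLEKHF1, a protein of endosomes and lysosomes, stood at 6.19 and 5.47 CPM against 3.23 and 2.62 (log2FC -1.003 ± 0.235). The last pair rested on few reads, 55 to 164 expected counts in a library. The adjusted p was 0.958 for each of the 8 genes with edgeR.

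All 8 genes were also lower in the input RNA after formaldehyde with no overlap between the groups. Among the 12090 genes with a mean count of at least 50, so were 882 of the 1913 that lay lower in FA_IP without overlap. The input log2FC was -0.66 ± 0.16 for DUSP7, -0.52 ± 0.16 for DDIT4, -0.36 ± 0.11 for DUSP5, -0.34 ± 0.10 for MYC, -0.44 ± 0.12 for NAB2 and -0.36 ± 0.11 for DUSP1 (edgeR adjusted p = 0.957). RAB20 had -0.81 ± 0.26 and PLEKHF1 -0.68 ± 0.33. The interaction, the FA_IP against CA_IP difference minus the input difference, lay between -0.31 for PLEKHF1 and -0.06 for DUSP1, with an unadjusted p of 0.366 or more (edgeR on 8 libraries, adjusted p = 1.00). The interaction fit treated the 8 libraries as independent, although each immunoprecipitated RNA was a portion of an input RNA.

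**Figure D2:**
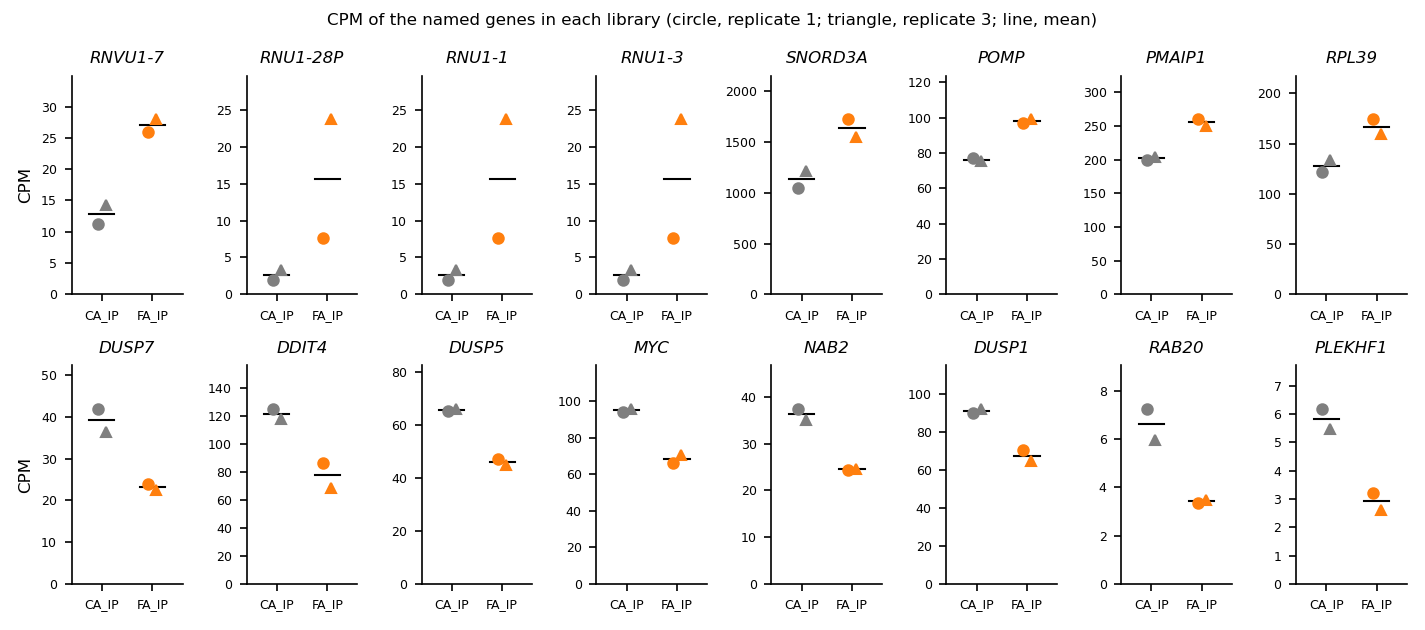
CPM in each library of the 16 genes with a symbol chosen by smallest unadjusted p. Replicate 1 is a circle, replicate 3 a triangle and the mean a line, with axes from 0. In the lower row each FA_IP value lies below both CA_IP values, and in the upper row above them, as the choice of the genes requires. RNU1-1 lies at 7.63 and 23.7 CPM in FA_IP.

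The promoter of DUSP1 is shown because, of the 4 promoters read (DUSP1, DUSP7, DDIT4 and NAB2), it alone matched a motif searched. It covers 250 bases before and 50 after the start, chr5:172771146-172771445 on the minus strand (RefSeq, GRCh38.p14), with the match to the cyclic AMP response element TGACGTCA in capitals.
DUSP1 promoter: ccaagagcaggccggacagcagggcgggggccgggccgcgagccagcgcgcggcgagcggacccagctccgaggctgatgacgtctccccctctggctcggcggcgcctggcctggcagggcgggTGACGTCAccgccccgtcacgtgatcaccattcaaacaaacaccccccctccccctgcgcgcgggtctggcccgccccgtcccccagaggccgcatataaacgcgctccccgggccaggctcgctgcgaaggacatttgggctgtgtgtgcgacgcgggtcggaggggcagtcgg
The motif was present on either strand in 649 of 35116 RefSeq promoters of this length (1.85%). The AP-1 motif TGANTCA was present in 7.71% and the EGR motif GCGTGGGCG in 0.795%. The promoters of DUSP7, DDIT4 and NAB2 held no match to the 3 motifs, and that of DUSP1 held none to the AP-1 and EGR motifs. A match is a description of the sequence, and no binding was measured.

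The 8 genes that lay higher in FA_IP were 4 U1 small nuclear RNA genes, the small nucleolar RNA gene SNORD3A and 3 protein-coding genes. U1 pairs with the start of introns in splicing, and SNORD3A encodes U3, which guides the cleavage of the ribosomal RNA precursor. SNORD3A stood at 1049 and 1215 CPM in CA_IP and at 1720 and 1544 in FA_IP, a log2FC of 0.53 ± 0.12 (edgeR adjusted p = 0.958). With effective-length offsets the log2FC was 0.86. Its groups, apart in the immunoprecipitated RNA as the choice requires, overlapped in the input, where the log2FC was 0.04 ± 0.14. The interaction was 0.50 ± 0.21 (edgeR unadjusted p = 0.0406, adjusted p = 1.00).

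POMP, an assembly factor of the proteasome, gave 77.0 and 75.4 CPM in CA_IP and 97.2 and 99.1 in FA_IP (log2FC 0.37 ± 0.09). PMAIP1, which encodes the pro-apoptotic BH3 protein NOXA, gave 199.2 and 204.1 CPM against 259.8 and 250.3 (log2FC 0.34 ± 0.09). RPL39, a protein of the large ribosomal subunit, gave 121.4 and 133.6 CPM against 174.2 and 159.3 (log2FC 0.39 ± 0.10). All 3 also lay higher in the input without overlap, by 0.13 ± 0.09, 0.19 ± 0.10 and 0.11 ± 0.08 on the log2 scale. Among the 12090 genes, so did 809 of the 2139 that lay higher in FA_IP without overlap. The adjusted p of POMP, PMAIP1 and RPL39 was 0.958 in the immunoprecipitated RNA with edgeR.

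**Figure D3:**
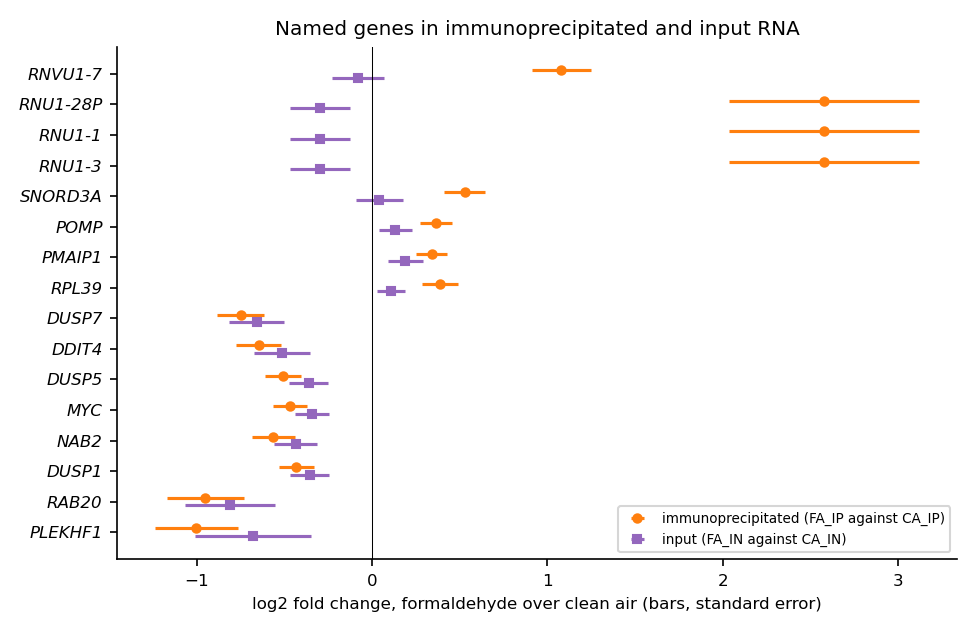
Log2FC of formaldehyde over clean air for the same 16 genes in immunoprecipitated RNA (orange circles) and input RNA (purple squares), with SE as bars from edgeR fits of 4 libraries each. The 8 lower genes have input values of -0.34 to -0.81, while RNU1-1 (2.58 and -0.30) and RNVU1-7 (1.08 and -0.08) part between the fractions.

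The U1 genes need their sequences, because 8 of the 10 U1 genes tested have the same 164 bases in GENCODE 44. RNVU1-7 differs from them by the substitution T150C, counted from the 5′ end of RNU1-1, shown in capitals.
RNU1-1: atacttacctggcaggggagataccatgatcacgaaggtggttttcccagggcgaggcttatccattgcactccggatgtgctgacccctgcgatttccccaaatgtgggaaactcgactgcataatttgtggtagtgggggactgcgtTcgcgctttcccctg
RNVU1-7: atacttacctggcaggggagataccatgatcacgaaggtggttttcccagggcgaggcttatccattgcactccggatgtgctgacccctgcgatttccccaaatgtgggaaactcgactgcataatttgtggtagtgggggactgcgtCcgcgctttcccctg
RNU1-1 lies at chr1:16514122-16514285 and RNVU1-7 at chr1:148038753-148038916, both on the minus strand of GRCh38. Reads from identical copies cannot be assigned to one of them, so the deposited counts of single copies rest on how the estimate divided shared reads.

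RNU1-1, RNU1-3 and RNU1-28P had the same expected counts in each library, 44.9 and 64.7 in CA_IP and 130.0 and 542.8 in FA_IP (log2FC 2.58 ± 0.54, input -0.30, and 1.53 without FA_IP replicate 3). RNU1-2, RNU1-4, RNU1-27P and RNVU1-29, with the same 164 bases, went the other way, from 359.8 and 602.1 counts in CA_IP to 148.5 and 427.2 in FA_IP. Summed over the 8 identical copies, U1 took 73.6 and 134.8 counts per M counts in CA_IP and 66.0 and 141.7 in FA_IP. The groups overlapped, with a ratio of means of 0.996 (exact two-sided permutation test, p = 1.0, where 2 against 2 libraries cannot go below 0.333). ENSG00000275405, which has no entry in GENCODE 44, carried the same counts as RNU1-1, and with it the sums were 75.7 and 138.1 in CA_IP and 73.7 and 164.7 in FA_IP, again with overlap.

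RNVU1-7 stood at 11.3 and 14.3 CPM in CA_IP and at 26.0 and 28.0 in FA_IP, a log2FC of 1.08 ± 0.17. It is the gene that DESeq2 called higher (adjusted p = 0.00408), while its edgeR adjusted p was 0.958. The input log2FC was -0.08 ± 0.15, and the interaction was 1.18 ± 0.23 (edgeR adjusted p = 1.00, DESeq2 adjusted p = 0.0150). Since 1 base separates RNVU1-7 from the identical copies, its count is uncertain too. All 10 copies together took 86.6 and 151.2 counts per M counts in CA_IP and 93.3 and 171.8 in FA_IP, with overlap.

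The 4 genes that DESeq2 called lower are named after their values were seen, and each shares sequence or position with another gene. ENSG00000280800 lies at chr21:8210384-8211306, within the 18S ribosomal RNA gene RNA18SN2 and annotated on the opposite strand. It stood at 1598 and 2436 CPM in CA_IP and at 497.1 and 441.8 in FA_IP, a log2FC of -2.10 ± 0.20 (edgeR adjusted p = 0.229, DESeq2 adjusted p = 3.15e-28). Counting took no account of strand, so its reads and those of 18S RNA cannot be told apart. The 4 annotated genes inside 18S sequences together took 3281 and 4984 counts per M counts in CA_IP and 1782 and 1124 in FA_IP, and in the input 2920 and 3633 against 1740 and 795.4. The CA values were thus 2.84 times the FA values in immunoprecipitated RNA and 2.58 times in input, RNA that had been depleted of ribosomal RNA before the antibody step.

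ENSG00000285238 (chr12:6556886-6607367, minus strand), a protein-coding gene annotated across NOP2 and CHD4, had 309.6 and 140.9 expected counts in CA_IP and 13.0 and 12.7 in FA_IP. SLC2A3P1, a processed pseudogene of the glucose transporter gene SLC2A3, had 73.5 and 69.8 counts against 0 and 6.54. ARHGAP19-SLIT1, a readthrough gene, had 31.3 and 40.9 counts against 0 and 0. Both FA_IP libraries lay below both CA_IP libraries for ENSG00000285238. SLC2A3P1 and ARHGAP19-SLIT1 passed the count filter through CA_IP alone, so the separation of their groups follows from the filter and is no further support. Reads shared with the parent genes were divided by estimate. The edgeR adjusted p of the 3 genes was 0.229, 0.958 and 0.767. In the 4 input libraries the values were 0 to 0.026 CPM for ENSG00000285238, 0 for SLC2A3P1 and 0 to 0.052 for ARHGAP19-SLIT1.

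Of 11 RNA classes, the groups overlapped in their share of counts for 9. Nuclear protein-coding genes took 81.0% and 79.0% in CA_IP and 80.2% and 79.1% in FA_IP. Mitochondrially encoded genes took 9.60% and 10.3% against 10.2% and 11.3%, and small nuclear RNA 0.752% and 0.905% against 1.11% and 0.864%. The groups overlapped for each of these classes, although the ratio of the mean shares was 1.19 for small nuclear RNA, 1.21 for ribozymes and 1.18 for small Cajal body RNA, which overlapped too.

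The groups were apart for small nucleolar RNA and for long non-coding RNA. Small nucleolar RNA took 0.133% and 0.152% in CA_IP and 0.208% and 0.182% in FA_IP, a ratio of 1.37 (exact two-sided permutation test, p = 0.333, the smallest it allows). Without SNORD3A the shares were 0.0255% and 0.0323% against 0.0349% and 0.0326%, a ratio of 1.17. Long non-coding RNA took 1.53% and 1.58% against 1.35% and 1.19%, a ratio of 0.815 (exact p = 0.333). Without the 4 genes inside 18S sequences those shares overlapped, at 1.201% and 1.086% against 1.174% and 1.075%, with a ratio of 0.983.

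The highest counts did not move apart. MT-RNR2, the mitochondrial 16S ribosomal RNA, took 84877 and 95481 CPM in CA_IP and 90170 and 107395 in FA_IP (log2FC 0.13 ± 0.17). RN7SL1 and RN7SL2, copies of the signal recognition particle RNA that share reads, had log2FC of -0.11 ± 0.16 and -0.01 ± 0.15. EEF1A1, an elongation factor of translation, had 0.09 ± 0.14, and RN7SK, a regulator of transcript elongation, had 0.28 ± 0.16. The groups overlapped for all 5 genes.

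None of the 21 lists, 420 different genes tested, held a gene that passed (0 with edgeR and 0 with DESeq2, against 21 higher and 7 lower at an unadjusted edgeR p under 0.05). Among 16 targets of NRF2, the main activator of antioxidant genes, 3 lay higher without overlap and 2 lower, with a median log2FC of 0.05. Among 17 targets of p53, 2 lay higher and 3 lower, with a median of -0.09. CDKN1A, the cell cycle inhibitor p21, stood at 151.1 and 154.0 CPM in CA_IP and at 125.4 and 132.8 in FA_IP (log2FC -0.24 ± 0.09, input -0.15). GADD45A, a growth arrest gene, went the other way, from 67.3 and 80.3 CPM to 100.9 and 94.5 (log2FC 0.40 ± 0.12, input 0.41 ± 0.13).

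Among 12 genes of the ATF4 stress response, 4 lay higher and 2 lower without overlap (median log2FC 0.07). PHGDH, an enzyme of serine synthesis, stood at 96.7 and 95.7 CPM in CA_IP and at 114.8 and 112.0 in FA_IP (log2FC 0.24 ± 0.09, input 0.20), and DDIT4 was the lowest member. Of 12 immediate early genes, 0 lay higher and 4 lower, DUSP1 and MYC among them, with a median of -0.10. Of 11 cytosolic heat shock proteins, 3 lay higher and 0 lower (median 0.07), and of 12 endoplasmic reticulum chaperones, 2 lay higher and 1 lower (median 0.01). Of the 4 most abundant members of each list, HSPD1 (0.13 ± 0.09, input 0.11) and HSP90B1 (0.11 ± 0.10, input 0.05) lay higher without overlap, and the other three of each overlapped. Of the 84 genes that are the 4 most abundant of each list, 63 overlapped, 18 lay higher and 3 lower, and those named here are mostly from the 21 without overlap.

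Of the 12 enzymes that clear formaldehyde or carry one-carbon units, 3 lay higher without overlap and 0 lower (median log2FC 0.10, input 0.08). MTHFD1, of the folate cycle, stood at 128.8 and 130.1 CPM in CA_IP and at 136.7 and 152.3 in FA_IP (log2FC 0.16 ± 0.10, input 0.16, and 0.08 without FA_IP replicate 3). Of the 11 genes of 8-oxoG repair, nucleotide pool cleaning and oxidised RNA binding, 4 lay higher and 1 lower (median 0.06, input 0.08). PCBP2, an RNA-binding protein, had a log2FC of 0.07 ± 0.09 (input 0.05), APEX1, a base excision nuclease, 0.19 ± 0.12 (input 0.17), and PNPT1, an RNA-degrading enzyme of mitochondria, 0.17 ± 0.10 (input 0.09). APEX1 differed by 0.002 in replicate 1 and 0.37 in replicate 3, and its log2FC was 0.03 without FA_IP replicate 3. Of 18 crosslink repair genes, 4 lay higher and 2 lower (median 0.01), FANCI (0.11 ± 0.10, input 0.08) and FANCD2 (0.10 ± 0.09, input 0.08) among the former. FANCI differed by 0.02 in replicate 1 and 0.21 in replicate 3, and FANCD2 by 0.11 and 0.09. With effective-length offsets PCBP2, FANCI and FANCD2 had 0.11, 0.22 and 0.02.

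The study singled out transcripts of 30 chromatin and DNA damage genes from these samples, so they are no independent evidence of a direction. It compared the enrichment of single transcripts over input between treatments, while sums by gene without input are compared here. The values here therefore do not test its choice. Of the 30 genes, 5 lay higher and 6 lower without overlap and 19 overlapped, with a median log2FC of -0.02. The remaining lists gave medians of -0.02 for 16 extracellular matrix genes and 12 cholesterol genes, 0.02 for 11 cytokines, 0.04 for 13 nuclear long non-coding RNAs and hosts, 0.05 for 18 replication and mitosis genes and 0.06 for 12 interferon-stimulated genes. Fibronectin, FN1, stood at 1081 and 1079 CPM in CA_IP and at 915.5 and 1014 in FA_IP (log2FC -0.16 ± 0.10, input -0.09). MT2A, 1 of 5 metallothioneins tested (median 0.17), stood at 412.0 and 552.7 CPM against 559.5 and 580.5 (log2FC 0.24 ± 0.14, input 0.15). FTH1, the ferritin heavy chain and an NRF2 target, stood at 510.2 and 473.3 CPM against 565.9 and 530.6 (log2FC 0.16 ± 0.10, input 0.20).

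Ribosomal protein and mitochondrially encoded genes stood above the median of all genes in nearly all members. Of 79 ribosomal protein genes, 77 had a log2FC above 0 and 29 lay higher without overlap, none lower, with a median of 0.14. In the input, 66 of the 79 lay higher without overlap (16.7% of all genes tested) and the median was 0.12. RPLP0, of the ribosomal stalk, stood at 2092 and 2321 CPM in CA_IP and at 2368 and 2444 in FA_IP (log2FC 0.12 ± 0.11, input 0.13). The count above 0 was 77 with library size and DESeq2 scaling and 78 with effective-length offsets. Of 15 mitochondrially encoded genes, 14 lay above 0 and 8 lay higher without overlap, with a median of 0.19 against 0.07 in the input.

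MT-RNR1, the mitochondrial 12S ribosomal RNA, stood at 2801 and 3566 CPM in CA_IP and at 4124 and 3823 in FA_IP (log2FC 0.32 ± 0.14, input 0.09). MT-CO1 and MT-CO3, subunits of cytochrome c oxidase, had log2FC of 0.24 ± 0.13 (input 0.06) and 0.19 ± 0.11 (input -0.03). The size of these differences varied with single libraries. MT-RNR1 had 0.15 without CA_IP replicate 1 and 0.50 without CA_IP replicate 3. MT-CO1 and MT-CO3 had 0.09 and 0.06 without FA_IP replicate 1, and 0.37 and 0.30 without FA_IP replicate 3. Replication-dependent histones (8 of 60 higher, 2 lower, median 0.13) and small nucleolar RNAs (4 of 31 higher, 1 lower, median 0.21) had medians above 0, with wider ranges of -1.36 to 1.154 and -0.75 to 1.36. In the input, small nucleolar RNAs had a median of -0.32, and 12 of the 31 lay lower without overlap (16.7% of all genes). SNORA73A stood at 48.1 and 56.0 CPM in CA_IP and at 59.6 and 62.9 in FA_IP (log2FC 0.24 ± 0.12, input -0.03, and 0.56 with effective-length offsets).

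**Figure D4:**
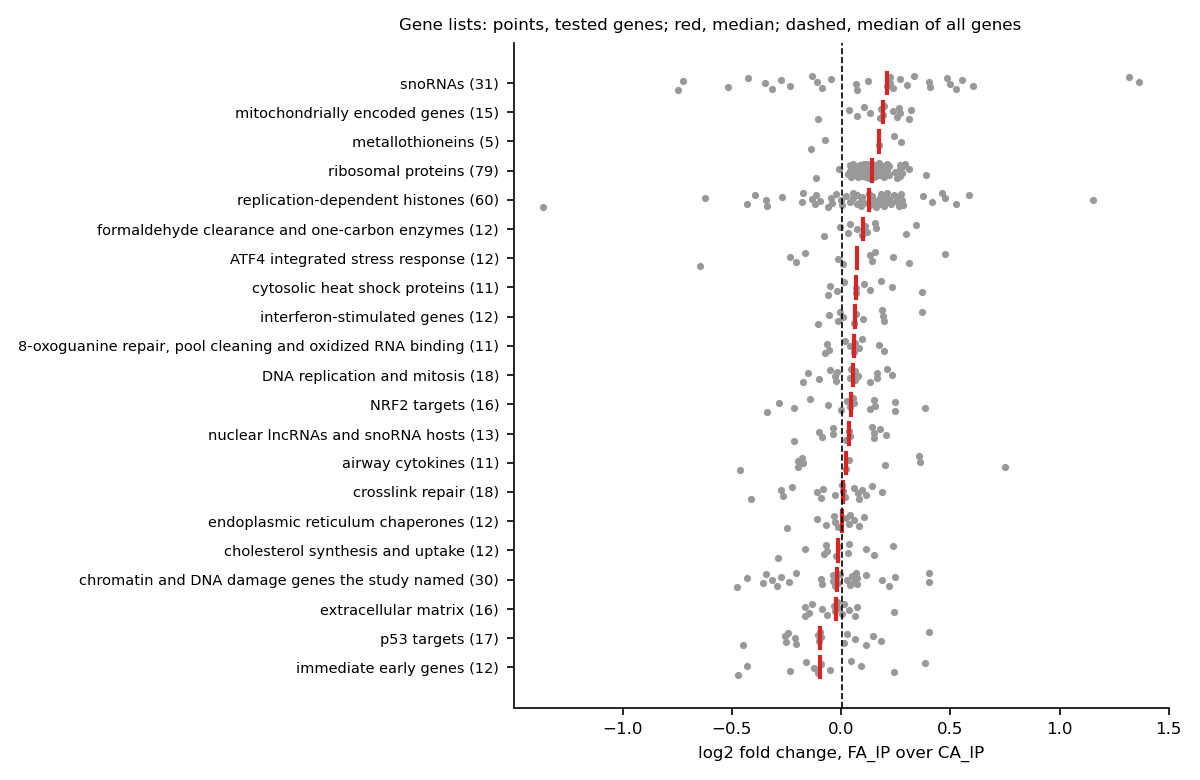
Log2FC of FA_IP over CA_IP for the tested members of each list (grey points, number in brackets), with the list median as a red bar and the median of all genes as a dashed line at 0.01. Ribosomal proteins form a narrow band around 0.14, while immediate early genes and p53 targets have the lowest medians.

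The difference moved with transcript length. Across the 12090 genes, the log2FC and the length of the most abundant transcript of a gene correlated at a Spearman rho of -0.25 in immunoprecipitated RNA, -0.26 in input, -0.28 in replicate 1 and -0.12 in replicate 3. The median log2FC was 0.11 for 866 genes of 300 to under 1000 bases, 0.06 for 2461 genes of 1000 to under 2000 bases and -0.04 for 4123 genes of 4000 bases and over. In the input these medians were 0.11, 0.07 and -0.04. Genes higher without overlap made up 31.5% of the 866 and 11.5% of the 4123, and genes lower made up 5.08% and 19.9%. The 48 genes under 300 bases had a median of 0.19 in immunoprecipitated RNA and -0.30 in input. The part of length in the differences of POMP, RPL39 and the ribosomal protein genes was not tested.

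**Figure D5:**
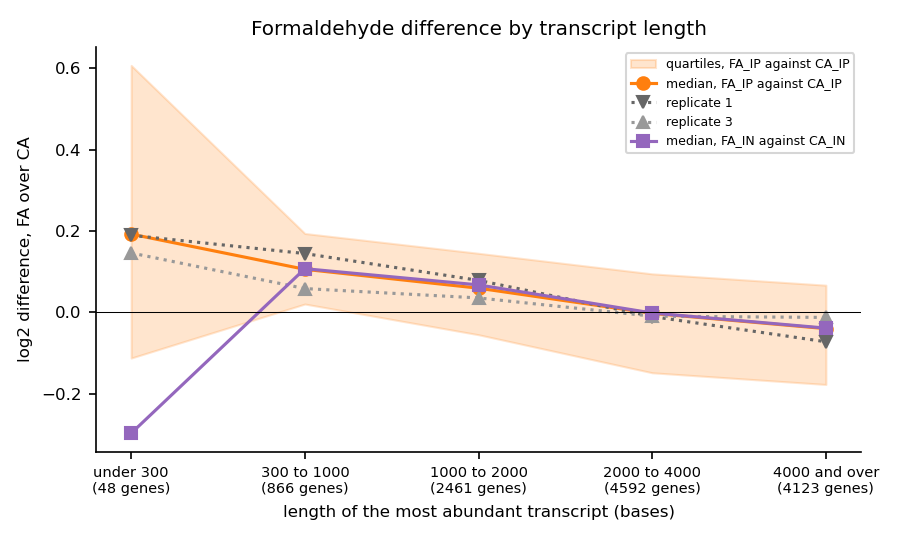
Median log2 difference of formaldehyde over clean air by length of the most abundant transcript (x axis, bases), for FA_IP against CA_IP with its quartiles, each numbered pair and the input. Medians fall from 0.11 at 300 to 1000 bases to -0.04 at 4000 and over in both fractions. The fractions part under 300 bases (0.19 and -0.30), where identical U1 copies count as separate genes.

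The guanine share of the transcripts, the base that forms 8-oxoG, gave no common direction. For the 10355 genes (85.6%) whose transcript sequence was within 10% of the deposited length, the Spearman rho of guanine share with the log2FC was -0.06 in FA_IP against CA_IP. It was 0.10 in replicate 1 and -0.27 in replicate 3, of opposite sign, and 0.23 in the input.

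Across the 12090 genes, the FA_IP against CA_IP log2FC correlated with the input log2FC at r = 0.64, where the fractions come from the same RNA. Of these genes, 1913 lay lower in FA_IP without overlap, of which 882 were also lower in input without overlap and 44 were higher there. Of the 2139 that lay higher in FA_IP without overlap, 809 were higher in input and 40 lower. The rest overlapped in input. The input comparison called 0 genes with edgeR (603 at an unadjusted p under 0.05, 3.69%, and 3 with DESeq2). The interaction, which tests whether the formaldehyde difference in immunoprecipitated RNA departed from that in input, called 0 genes with edgeR (120 at an unadjusted p under 0.05, 0.734%) and 3 with DESeq2, namely RNVU1-7, BIVM-ERCC5 and ENSG00000277067. Neither fit had a term for the RNA that the fractions share.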

How the data were processed

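RNA sequencing libraries of immunoprecipitated and input RNA from BEAS-2B cells were grouped by the treatment and fraction in their labels. The authors trimmed reads, aligned them with STAR 2.6.0a (submitters' notes) to GRCh38 with Ensembl 94 and deposited RSEM 1.2.25 expected counts per transcript, counted without regard to strand, and TPM values, used here only to weight effective lengths in 1 alternative. The authors' tables of DESeq2 log2 fold changes and p-values were not used either. Expected counts were summed by gene and rounded. Genes with at least 10 counts in at least 2 of the 4 libraries were tested with edgeR 4.0.16 (TMM, quasi-likelihood, limma 3.58.1, R 4.3.3), in a fit of these 4 libraries (2 residual degrees of freedom), adjusting p by Benjamini-Hochberg and calling genes under 0.05. The input was fitted in the same way, and the interaction on 8 libraries with no term for the RNA that the fractions share. DESeq2 1.42.0 and limma-voom were alternatives. The tests were tried on simulated counts. CPM are counts scaled by TMM library sizes. Shares, and counts per M where so written, use all counts of a library. Symbols and classes came from GENCODE 44, which matched 16259 of the 16359 genes.

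Named genes were the 8 per direction with the smallest unadjusted p among genes with a mean count of at least 50 and no overlap (none passed), up to 4 members of each list with the highest CPM, of which the 21 of 84 without overlap are given, and the 5 genes with the highest CPM. Genes without a symbol were not named, other than those called by DESeq2. Motifs were searched on both strands of RefSeq promoters. The members and lists were chosen with earlier results of these data known. The replicates are biological duplicates per the labels. No molecular identifiers were used, so reads may repeat molecules.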

Additional observations from a re-analysis of the deposited data

How the results depend on the processing

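The absence of calls between FA_IP and CA_IP did not change with library size in place of TMM, a stricter filter (mean count of 50 or more), a fit of all 8 libraries, nuclear protein-coding genes only, effective-length offsets, a prior count of 2, newer quasi-likelihood estimates, limma-voom or transcripts in place of genes (0 higher and 0 lower in each). DESeq2 gave 1 higher and 4 lower, and no filter on counts gave 36 higher and 100 lower among 31519 genes, the cause of which was not tested. Leaving out a library gave 2 higher and 7 lower (CA_IP replicate 1), 19 and 121 (CA_IP replicate 3), 4 and 9 (FA_IP replicate 1) and 2 and 6 (FA_IP replicate 3), where the lone library is assumed to vary like the other group. The replicates share a number across the groups. The paper lists exposures by date, with clean air run in parallel, but the sources tie no number to a date or batch. With the number as a replicate block, 76 genes were higher and 419 lower in FA_IP, 840 differed in the input (added after the data were seen) and 3 had an interaction. With it 24 of the 44 named genes passed, with no filter 12, and with DESeq2 5. The count for DESeq2 follows from the choice, since 4 of these 5 genes were named because DESeq2 called them. The deviations of replicate 1 from replicate 3 correlated at r = 0.56 between CA_IP and FA_IP and at 0.54 between CA_IN and FA_IN, over 2 pairs. In the input, DESeq2 called 3 genes and edgeR on 8 libraries 1, and DESeq2 called 3 interactions. Of the named genes, RN7SL1 (0.0301) and RN7SL2 (0.13) turned positive with effective-length offsets. Leaving out a library gave a log2FC of -0.24 to 0.0458 for RN7SL1, -0.16 to 0.16 for RN7SL2, -0.00015 to 0.25 for MT-RNR2 and -0.0190 to 0.18 for EEF1A1. Leaving out a library moved the log2FC of 23 of the 44 named genes by over 1.5 times, and another setting moved 9. Among the 23 were 3 of the 16 genes with a symbol chosen by smallest p (RNU1-1, RNU1-3 and RNU1-28P). With 2 libraries in each group, differences near the median SE of 0.16 could not be resolved. Differences of many SE did not pass either, such as -2.10 ± 0.20 for ENSG00000280800 (edgeR adjusted p = 0.229).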

Other observations

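BIVM-ERCC5, a readthrough gene, stood at 2.96 and 3.02 CPM in CA_IP and 3.76 and 2.31 in FA_IP, and at 4.41 and 3.40 in CA_IN and 0.08 and 0 in FA_IN. It is named because DESeq2 called its interaction, which edgeR did not. Its reads overlap those of its parent genes.

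The genes ENSG00000280800 and ENSG00000280614, which lie in different 18S ribosomal RNA copies, had the same count in FA_IP replicate 3 (10126 expected counts each), while they had 36123 and 19120 in CA_IP replicate 1. Their sum with the other two genes in 18S sequences, given above, does not depend on how shared reads were divided among these 4 genes.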
